A study of Bos taurus with 2 samples.

Results

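Windows of 1000 bp in which CpG methylation was far lower in one of 2 cattle bone samples than in the other were collected from chromosomes 1 to 29. A window was eligible if it held 5 or more CpG sites and each sample had 50 or more calls in it, a call being one read's methylated or unmethylated state at one CpG cytosine. Members were chosen by the measured values themselves, as windows whose methylation level, the methylated calls over all calls of the window with both strands merged, was at least 50 percentage points lower in Bone_2 than in Bone_1. In all, 855 of 1557385 eligible windows were members, 0.0549% of them. In the opposite direction, 15 windows passed the same limit, 0.000963% of those eligible. With Bone_2 first moved by the odds ratio between the samples' autosomal levels, 53 windows were left. Because the rule used this difference, its size is a description of the members, and no test was made of it.

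Both samples were labelled as bone of female Holstein cattle and were read by whole-genome bisulfite sequencing (WGBS), with paired reads of 150 bp. They formed a single group without a treatment, and neither the labels nor the study's text and sample list, as read here, gave the number of animals, the bone, the age or the cells. With 1 library each, a difference between them cannot be told apart from a difference between animals, dissections, cell mixtures or library preparations. Autosomal methylation was 72.4% of 445684877 calls in Bone_1 and 59.0% of 389385549 calls in Bone_2, and most windows had a gap in the same direction.

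In mammals, methyl groups are placed on the cytosines of most CpG sites and are copied to the new strand after replication. CpG-dense stretches at gene starts usually stay free of them, and enhancers lose part of theirs in the cells that use them. Bisulfite turns unmethylated cytosines into bases that are read as thymines while methylated ones are kept, so a level in a mixed tissue such as bone is an average over its cells and both alleles.

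The rule itself required members to be well methylated in Bone_1 and far lower in Bone_2. The levels of members therefore cannot show which sample departed from the usual state of these windows. In Bone_1 the lowest member was at 52.4%, the median at 84.6% and the highest at 100%. The median over all eligible windows, which include those too low in Bone_1 to be chosen, was 80.3%. In Bone_2 the members ran from 0% to 46.5% with a median of 30.6%, where the median over all eligible windows was 61.7%. Most members were partly methylated in Bone_2 rather than unmethylated, at levels that the rule and their levels in Bone_1 largely set. Levels of 20 to 29% in Bone_2 were held by 314 members and 30 to 39% by 351, whereas 14 were below 10% and 3 had no methylated call at all.

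**Figure D1:**
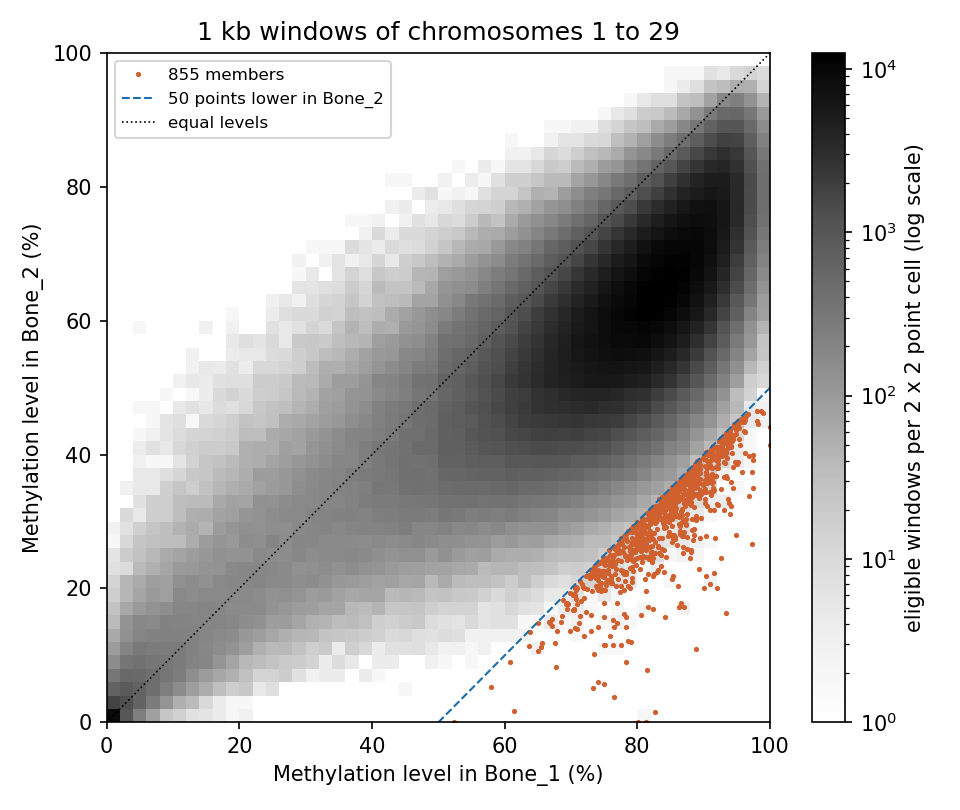
Methylation level (%) of 1 kb windows in Bone_1 (horizontal) and Bone_2 (vertical). Grey cells count all 1557385 eligible windows on a log colour scale, orange points are the 855 members, the dashed line marks 50 points lower in Bone_2 and the dotted line equal levels. The cloud of windows lies below the line of equal levels, and the members form its outer edge, most of them close to the limit.

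The median difference of the members was 52.7 points, against 16.9 points over all eligible windows (SD 9.81 between windows). It was under 55 points in 633 members, at least 60 points in 69 and at least 70 points in 11. The 3 members just inside the limit were chr8:14164001-14165000, chr6:24245001-24246000 and chr7:71491001-71492000, with differences of 50, 50 and 50.02 points. Just outside it lay chr18:2588001-2589000, chr27:16298001-16299000 and chr4:58776001-58777000, each at 49.98 points, and the first of these was measured more deeply than any of the former, with 57 CpG sites and 1179 and 369 calls. The limit therefore cut through a continuous range of values. The 95% Newcombe interval of a member's difference reached a median of 10.9 points to either side. Its lower bound was at least 50 points in 49 members and at least 40 points in 511. The lower bound was at least 30 points in all 855, which the limits of 50 points and 50 calls set in advance. Outside the limit, 10382 windows had an upper bound that reached it. These intervals, and the Wilson intervals given for single levels, hold counting error alone. They do not allow for the members having been chosen on the same difference. The authors had removed duplicate reads, but without molecular identifiers some molecules may still have been read more than once. Neighbouring sites are often called by the same read.

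Members were more common where a window held few calls. Among windows with 50 to 74 calls in the sample with fewer, 0.150% were members, and the share fell to 0.0801% at 75 to 99 calls, 0.0366% at 100 to 199 and 0.0130% at 200 to 399. The windows with at least 400 calls held 5 members, 0.0129% of 38857. These classes were not compared at like level in Bone_1. The median difference of all windows was 7.78 points from 400 calls on and 16.2 to 17.4 points in the shallower classes. By CpG sites, 0.0838% of windows with 5 to 9 sites were members and 0.0370% of those with 10 to 19 sites. Shallow, CpG-poor windows thus made up much of the set, with a median of 8 CpG sites per member against 11 over all eligible windows, and medians of 102 and 116 calls against 164 and 177. Unequal depth did not mark the members, as one sample had at least 3 times the calls per site of the other in 9.12% of them and in 9.89% of all eligible windows.

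**Figure D2:**
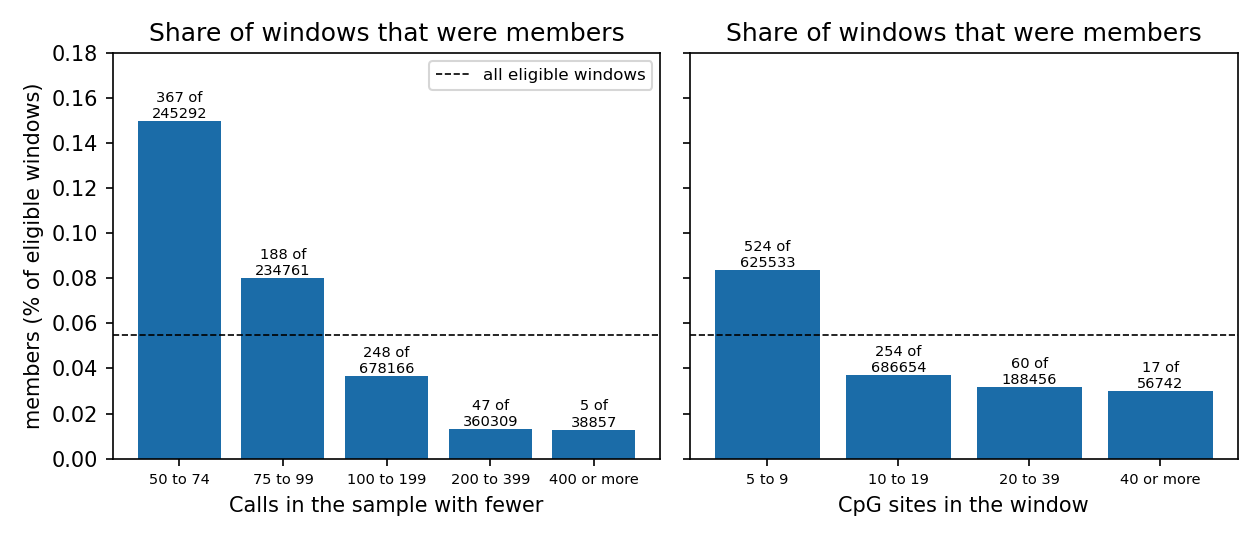
Members as a percentage of eligible windows, by the number of calls in the sample with fewer calls (left) and by the number of CpG sites in the window (right). Bars start at 0, the numbers over them give members and eligible windows, and the dashed line is the share over all eligible windows, 0.0549%. The share falls from 0.150% in the shallowest class to 0.0129% in the deepest, over windows of any level in Bone_1.

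Choosing windows on one strand gave a reading on the other that the choice had not used, because each read pair calls the cytosines of the top or of the bottom strand alone. How many fragments lay behind the calls of a strand is not known, and both strands of a fragment can be sequenced. In 805421 eligible windows with at least 25 calls per strand in each sample, 3910 (0.485%) were at least 50 points lower in Bone_2 on the top strand, whatever the bottom strand showed. On their bottom strand the median difference was 19.8 points (quartiles 10.9 and 28.5), against 16.7 points over all these windows. Of the 3910, 84 (2.15%) were also at least 50 points lower there, a share above the 0.497% over all these windows. Chosen on the bottom strand, 3999 windows showed a median of 20.5 points on the top strand, and the same 84 passed on both, 2.10%. A gap of 50 points or more on one strand therefore went with a gap on the other strand whose median was little wider than in windows at large, while the few windows past the limit on that strand were more frequent than at large. Chosen windows had to be at least 50% methylated in Bone_1 on the choosing strand, and windows at large did not. Neither the medians nor the shares were compared at like level in Bone_1.

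At greater depth the median on the other strand stayed alike, while the median over all windows was lower. With 25 to 49 calls on the strand and sample with the fewest, windows chosen on the top strand had a median of 19.9 points on the bottom strand, against 17.4 points over all windows of that depth. With at least 100 calls per strand in each sample, 190 windows chosen on the top strand had a median of 19.7 points on the bottom strand, against 13.9 points over all such windows, and 5 of them (2.63%) passed on both strands, where 0.195% of all such windows passed on the bottom strand. For 232 windows chosen on the bottom strand, the median on the top strand was 19.1 points, and 5 passed. All windows of a depth include those too low in Bone_1 to be chosen, and these values were not compared at like level either. With both strands merged, eligible windows at 70 to 79%, 80 to 89% and 90 to 100% in Bone_1 had median differences of 16.9, 19.2 and 18.7 points. Of the members, 258 had at least 25 calls per strand in each sample. Both strands had helped to choose these, and 247 of them were at least 30 points lower on each strand and 79 at least 50 points lower on each.

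**Figure D3:**
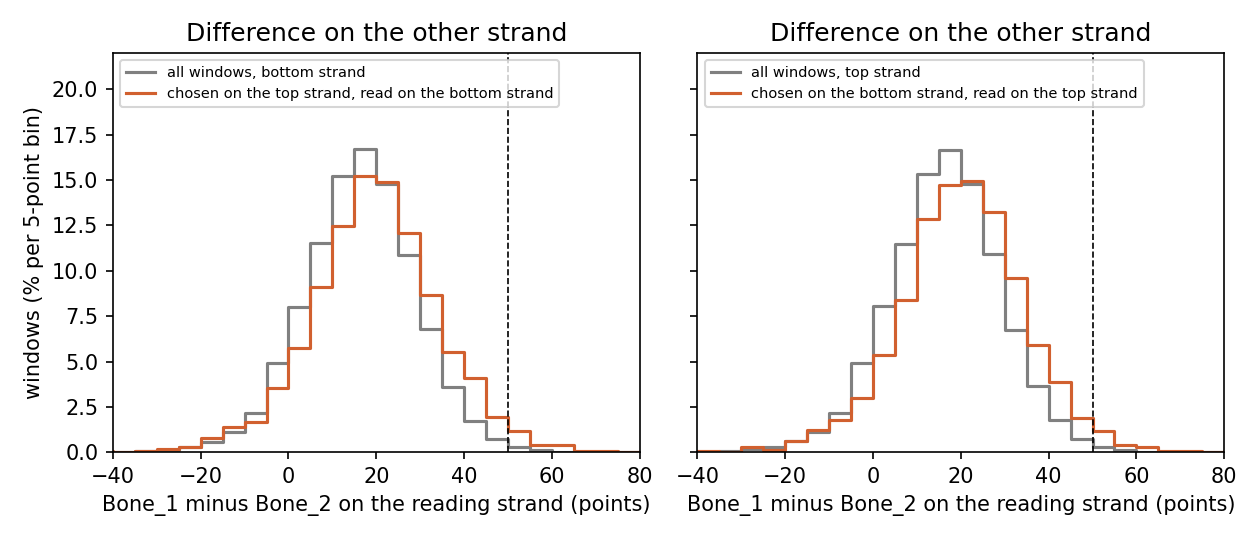
Difference between Bone_1 and Bone_2 (percentage points, horizontal) on the strand that was not used for choosing, as a percentage of windows per 5-point bin (vertical). Grey lines are all 805421 windows with at least 25 calls per strand in each sample, and orange lines are those at least 50 points lower in Bone_2 on the other strand (3910 at left, 3999 at right). The orange lines lie slightly to the right of the grey ones, and little of them passes the dashed line at 50 points.

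The sites of a member were part of the choice and are given as a description. At least 5 sites with 5 or more calls in each sample were found in 619 members, and all such sites were lower in Bone_2 in 506 of these (81.7%), against 25.8% when every 50th eligible window was counted the same way. Of their 5358 sites, 5205 (97.1%) were lower in Bone_2 and 2610 (48.7%) were at least 50 points lower, against 77.5% and 3.73% of sites in those windows. Most of a member's sites were at least 50 points lower in 264 of the 619. In 80 of the 619, at most 1 site was at least 50 points lower. Sites that differ in depth can also shift a level that is weighted by calls. The unweighted mean of site differences was at least 50 points in 307 of the 619 and under 30 points in 47. In 14 of the 855 members, fewer than 5 sites had any call in one of the samples, so the set holds a few windows that were not measured at several CpG sites in both.

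The low level of Bone_2 ended near the window's edges. In 100 bp bins within the members, Bone_2 was between 27.7% and 33.5% and Bone_1 between 81.8% and 85.7%. The bins next to the edges were at 50.7% and 51.1% in Bone_2 and at 78.1% and 76.9% in Bone_1. At 4 to 5 kb from the window, Bone_2 ranged from 52.9% to 57.0% and Bone_1 from 67.0% to 76.0%. Choosing windows on their own value makes such a step in any profile, so its depth is no result. The neighbours were not used by the rule, and the next windows on either side had a median difference of 21.2 points against 16.8 points for the neighbours of all eligible windows. Of these neighbours, 21.7% were at least 30 points lower in Bone_2, against 7.12% over all eligible windows. At 10 kb the values were 18.2 and 16.9 points. The excess around the members was thus small beside their own difference and faded with distance. Over whole 100 kb bins, the medians were 18.2 points for bins around members and 16.4 points around all eligible windows.

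**Figure D4:**
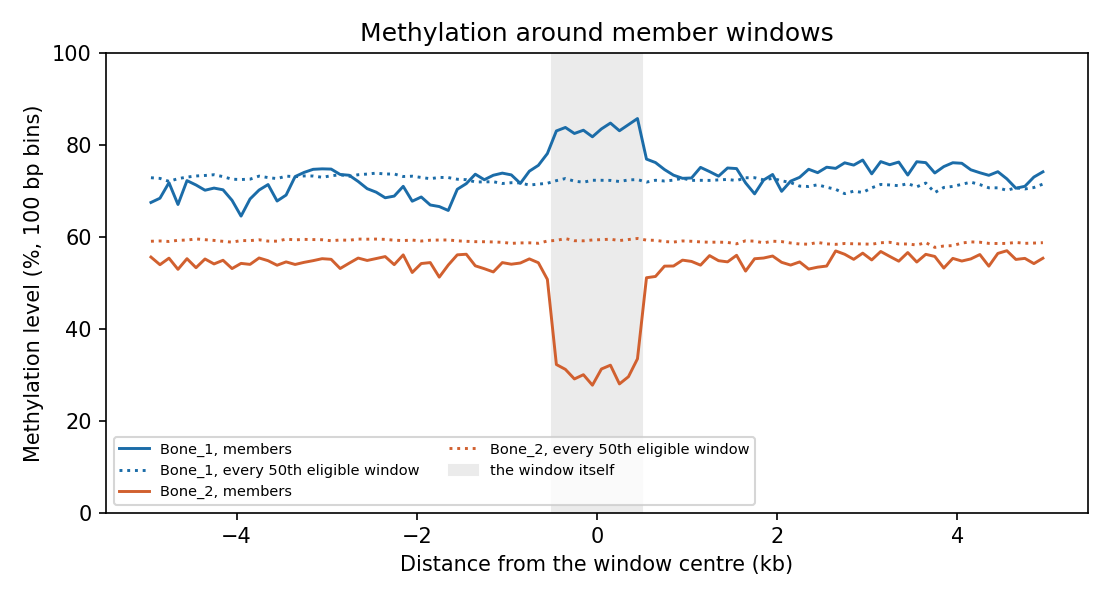
Methylation level (%) in 100 bp bins by distance (kb) from the window centre, as pooled calls over the 855 members (solid) and over every 50th eligible window (dotted), for Bone_1 in blue and Bone_2 in orange. The grey band is the window on which members were chosen. Outside it, Bone_2 rises to 50.7% and 51.1% in the first bins and 52.9% to 57.0% at 4 to 5 kb, which is still below the 58.5% to 59.5% around other windows at 4 to 5 kb.

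Members lay on all autosomes, mostly far apart. The median distance to the next member was 838 kb, 53 members had another within 10 kb, and 4 of the 100 kb bins held 3 or more. Members adjoined another member in 14 cases (1.64%), as 7 pairs, and no longer run was found. Of the eligible windows next to members, 1.27% were members too, against 0.0488% of those next to any eligible window. At 10 kb the shares were 0.378%, from 4 of 1057 windows, and 0.0490%. These shares were not compared at like depth. Single members were thus the rule, but members lay near each other more often than eligible windows lay near members. Pairs with many calls lay at chr7:22115001-22117000 in SLC22A4, a transporter of organic cations, at chr13:642001-644000, at chr1:22579001-22581000 and at chr1:17035001-17037000. The windows of the first pair were at 89.9% and 76.1% in Bone_1 and at 39.6% and 23.9% in Bone_2. Within 2 kb of a window with at least 40 CpG sites lay 67 members (7.84%), against 12.6% of eligible windows. Under stricter limits the shares lay closer, at 15.7% of the 300 members against 16.1% of eligible windows from 100 calls on, and at 15.7% of the 331 members against 18.4% for 10 or more CpG sites. By chromosome the share of members ran from 0.0161% on chromosome 22, with 7 members, to 0.0824% on chromosome 23, with 31. It was 0.103% in the first 2 Mb of the chromosomes, from 36 members, and 0.0322% in the last 2 Mb, from 16. The shares by chromosome and position were not compared at like depth, number of CpG sites or level in Bone_1. The bases next to the CpG differed little, as 25.5% of sites in members and 24.6% in every 50th eligible window had A or T on both sides.

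The 10 members with the largest differences were mostly thinly measured. First came chr10:103307001-103308000, with 81.3% of 150 calls in Bone_1 (95% Wilson interval 74.3 to 86.8%) and 0 of 60 calls in Bone_2. Only if every call were independent would this keep the level in Bone_2 to at most 5%. The window held 89 CpG sites, but only 36 of them were called in Bone_2, by at most 2 calls each. The windows on both sides had no call. The second, chr27:12539001-12540000, was at 82.7% of 133 calls and 1.49% of 67 calls, with 5 of its 9 sites called in Bone_2.

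The third and the fifth were low over a stretch of neighbouring sites. In chr18:43958001-43959000, 20062 bp from PEPD, a peptidase that splits proline-containing dipeptides, Bone_1 was at 80.2% of 131 calls (72.5 to 86.1%) and Bone_2 at 0 of 100. With every call taken as independent, the latter allows up to 3%. All 8 sites were called in both samples, and they ranged from 60.9% to 100% in Bone_1. On the top and bottom strand, Bone_1 was at 69.0% and 83.3%. In chr6:29083001-29084000 within UNC5C, a receptor for the guidance protein netrin, Bone_1 was at 93.3% of 75 calls (85.3 to 97.1%) and Bone_2 at 16.3% of 141 (11.1 to 23.3%). In Bone_2, 8 of its 12 sites had no methylated call while the other 4 were at 33.3% to 63.6%. Both strands were lower in Bone_2 there, at 95.2% and 12.8% on top and 90.9% and 23.4% at the bottom.

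In the ninth, the sites differed in depth and in level. In chr11:92327001-92328000 within GGTA1, the enzyme that builds the alpha-gal sugar of non-primate mammals, Bone_1 was at 97.2% of 289 calls (94.6 to 98.6%) and Bone_2 at 26.6% of 406 (22.5 to 31.1%). The top strand was at 96.8% and 20.9%, whereas the bottom strand was at 100% and 83.8%. At 4 neighbouring sites, 69 to 74 calls in Bone_2 were 1.45% to 2.82% methylated and 3 to 8 calls in Bone_1 were all methylated. The other 9 sites were at 57.1% to 100% in Bone_2. Over the 12 sites that had 5 or more calls in both samples, each counted once, the mean difference was 32.4 points, against 70.6 points for the pooled calls.

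The remaining 5 held 55 to 229 calls per sample. Bone_1 was at 88.9% of 63 calls and Bone_2 at 10.9% of 55 in chr6:61576001-61577000, within the uncharacterised gene LOC132345508. In chr7:13897001-13898000 the levels were 81.5% of 135 and 7.78% of 90 calls, and in chr20:29924001-29925000 they were 76.4% of 229 and 3.74% of 107. The window chr9:83885001-83886000 was at 92.1% of 63 and 20% of 150 calls, and chr5:16917001-16918000 at 90.9% of 55 and 20.7% of 92. Sites with 5 or more calls in both samples numbered only 2 in the first, the third and the last of these 5, and their mean differences were 45.9, 48.6 and 44.2 points, against 78.0, 72.7 and 70.3 for the pooled calls. The windows next to these 10 varied, with differences of -5.59 and 11.1 points beside chr6:61576001-61577000, 25.1 and 10.04 beside the third, 15.5 and 45.9 beside the fifth and 35.7 and 9.23 beside the ninth. Some of these neighbours were below the limits for eligible windows. The 11.1 points rested on 2 sites with 38 and 45 calls. The values of 10.04, 15.5 and 45.9 points rested on 49, 29 and 22 calls in the sample with fewer.

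Genes were placed with RefSeq positions of the assembly ARS-UCD2.0. The deposited counts name no build, and the submitters' processing notes name ARS-UCD1.2. The peaks of CpG density in the counts fell within 200 bp of the annotated gene ends in all 244 blocks of 10 Mb that held at least 40 ends, and 52 members lay in blocks that were not checked. No sequence was compared, and the annotation gave no strand, so a window was assigned to a protein-coding gene if it overlapped the gene or lay within 5 kb of either end. By this placement 373 members were at a gene, 0.0441% of such windows, and 482 were farther away, 0.0678%. A gene end was held by 10 members, 0.0319% of the windows that hold one. A window whose level in Bone_1 was below the required difference could not become a member. How many windows at gene ends were that low was not counted, so this share cannot show whether members avoid gene ends. The members lay more often away from genes than eligible windows did, at 56.4% against 45.7%. These shares at genes and gene ends were not compared at like depth, number of CpG sites or level in Bone_1.

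Of 20239 genes with an eligible window, 357 had a member, 32 had at least 2 and 6 had at least 3. Most of the 6 were long genes with many windows. THSD7B, a gene of thrombospondin repeats, held 4 members among 398 windows, KHDRBS2, an RNA-binding protein, 3 among 270, PTPRD, a receptor phosphatase, 3 among 925, and MACROD2, which removes ADP-ribose from proteins, 3 among 1392. Shorter genes with several members were PKHD1L1 with 4 among 110 windows and OSMR with 3 among 60. HOXB7 had 2 members among 13 windows and HOXB6, its neighbour, the same 2 among 17. The remaining genes with the highest shares had 1 member each among 10 to 12 windows, and CATHL2, which encodes an antimicrobial cathelicidin, FAM187A and PAG12, a pregnancy-associated glycoprotein, were among them. The others were known by identifiers alone.

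The HOXB pair was the best measured of these. HOX genes encode homeobox transcription factors that set the position of cells along the body axis. The window chr19:37884001-37885000, which overlaps HOXB7, held 27 CpG sites and was at 80.8% of 520 calls in Bone_1 (77.2 to 83.9%) and 30.1% of 319 in Bone_2 (25.3 to 35.3%). The window chr19:37886001-37887000, 501 bp from HOXB3 and within 5 kb of HOXB6 and HOXB7, held 59 sites and was at 75.6% of 702 calls (72.3 to 78.7%) and 22.2% of 598 (19.1 to 25.7%). All 59 sites of the latter had at least 5 calls in each sample and were lower in Bone_2, 37 of them by at least 50 points. The strands were at differences of 56.8 and 47.9 points. The window between both, with 6 sites, was at 77.9% and 45.5%, 32.4 points apart.

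The windows on both sides were lower in both samples. Before the stretch, chr19:37882001-37883000 with 82 sites was at 0.946% in Bone_1 and 0.417% in Bone_2. After it, the level in Bone_1 fell to 28.4% and 10.3% over 2 windows, where Bone_2 was at 6.12% and 1.53%, and the next window was at 4.35% and 3.52%. A methylated block of about 3 windows in Bone_1, with windows of lower methylation on both sides, was thus largely lower in Bone_2. Few members adjoined a window that was low in both samples. An eligible window at or under 20% in both samples lay on at least 1 side of 18 of 855 members (2.11%). The same held for 1.30% of the 1468750 eligible windows that were at least 50% methylated in Bone_1. The member overlapping HOXB7 was among the 18, and the other HOXB member was not.

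PKHD1L1, which encodes a large membrane protein of the fibrocystin family, had another of the 18. Its window chr14:55053001-55054000 was at 83.6% of 213 calls in Bone_1 and 23.3% of 120 in Bone_2, and all of its 16 sites with at least 5 calls were lower in Bone_2. The next window, with 72 sites, was at 6.21% and 1.98%. Beyond it and outside the gene, chr14:55056001-55057000 was at 90.9% of 77 and 31.8% of 85 calls, and the window after that missed the limit with 87.9% against 38.5%. The remaining pair lay within the gene at chr14:55035001-55037000, where Bone_1 was at 80.8% and 89.4% and Bone_2 at 30% and 22.97%. Over all windows assigned to the gene the median difference was 12.3 points, below the 16.1 points over all windows at protein-coding genes.

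In OSMR, a subunit of the receptors for oncostatin M and interleukin-31, the members were chr20:35514001-35515000, chr20:35535001-35536000 and chr20:35540001-35541000. Bone_1 was at 78.2% of 55, 92.0% of 50 and 81.1% of 424 calls, and Bone_2 at 21.1% of 57, 32.6% of 89 and 21.4% of 103. In the last of these, the top strand differed by 33.9 points and the bottom strand by 59.4, and 5 of its 7 sites with at least 5 calls were lower in Bone_2, with a median site difference of 18.3 points. Next to the second, a window of 7 sites outside the depth limit was at 84.1% of 233 and 14.3% of 28 calls. Between the last 2 members, a window of 34 sites was at 91.0% of 770 and 41.6% of 245 calls, 49.4 points apart and just outside the limit. Windows between the first 2 had differences of -6.35 to 36.4 points.

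**Figure D5:**
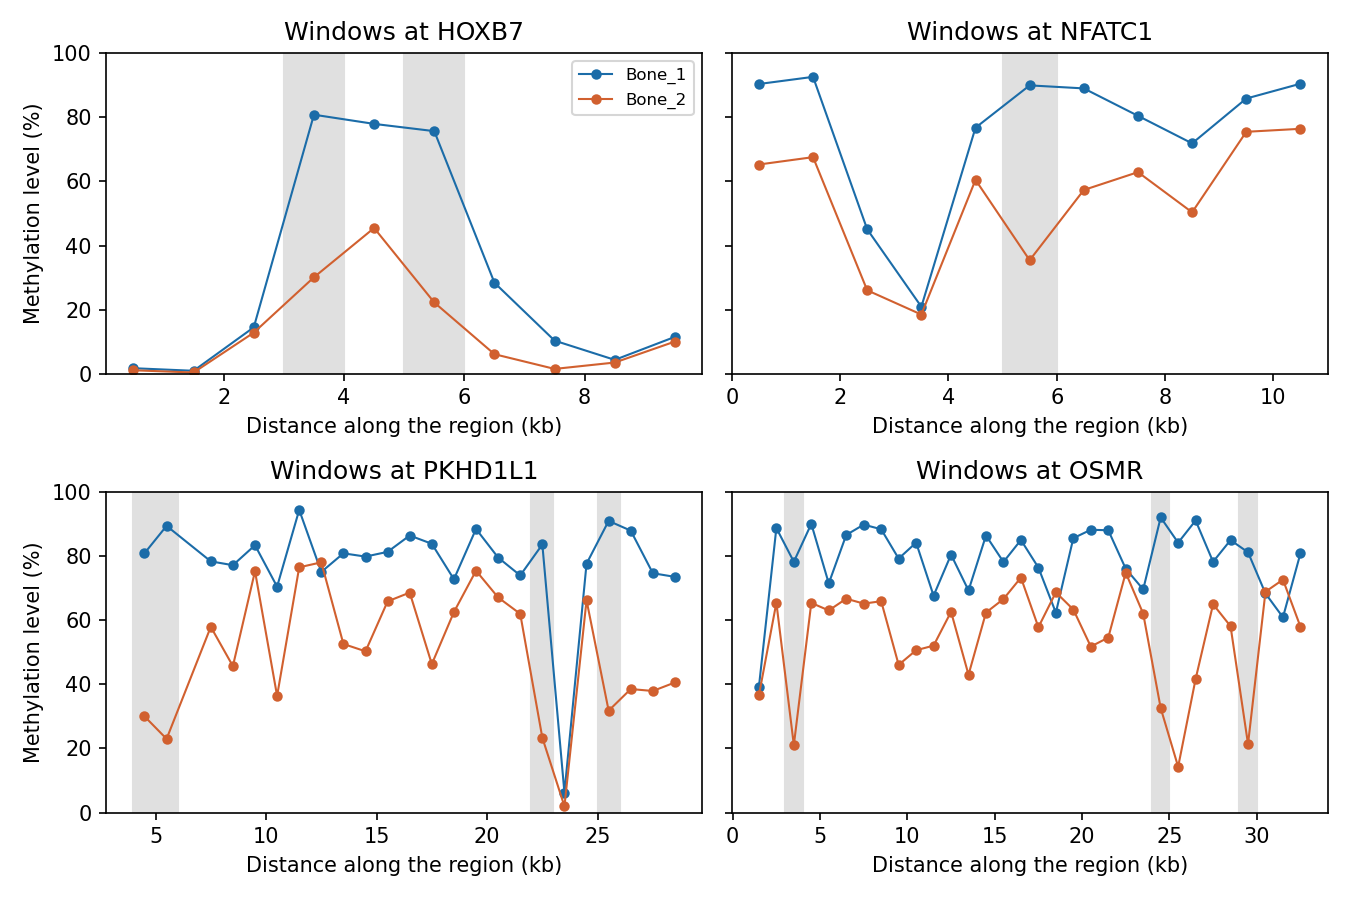
Methylation level (%) of 1 kb windows with at least 20 calls in each sample, by distance (kb) along 4 regions, for Bone_1 in blue and Bone_2 in orange, with members shaded grey. At HOXB7 the 2 members lie in a block that is high in Bone_1 and has windows of lower methylation on both sides, the NFATC1 member lies between windows with smaller differences, and at PKHD1L1 and OSMR members lie singly, side by side or next to windows that also dip in Bone_2.

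CpG-dense members were rare, with 17 windows of at least 40 CpG sites, 0.0300% of such windows. Among dense windows that were at least 50% methylated in Bone_1 the share was 0.0569%, between the 0.0865% for those with 5 to 9 sites and the 0.0383% and 0.0354% for those with 10 to 19 and 20 to 39 sites. With the HOXB window, 12 lay in or at a gene, the others being DCUN1D2, HSPG2, KCNMB2, PTPRN2, PC, SLC6A18, CCDC187, AGAP2, PACSIN3, BMP6 and NFATC1, names that were picked after their values were seen. The other 5 were 21784 to 125132 bp from the nearest protein-coding gene. Among the deeper ones was chr12:86664001-86665000 in DCUN1D2, a gene of the cullin neddylation pathway, with 58 sites, 82.0% of 1009 calls in Bone_1 (79.5 to 84.2%) and 24.9% of 562 in Bone_2 (21.5 to 28.6%). Its strands were 57.9 and 61.2 points apart, and 54 of its 55 sites with at least 5 calls were lower in Bone_2. In chr1:88447001-88448000 in KCNMB2, a subunit of calcium-activated potassium channels, the levels were 78.5% of 794 and 24.2% of 496 calls, but its 22 sites with at least 5 calls had a median difference of 28.6 points and 3 of them were at least 50 points lower. The window in BMP6, a bone morphogenetic protein, rested on 385 calls at 88.1% and 55 at 25.5%, and 26 of its 49 sites were called in Bone_2.

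Lists of genes that mark the cells of bone and marrow held few members. No window was a member among 737 at 16 osteoblast genes such as RUNX2 and COL1A1, 117 at osteocyte genes, 1515 at cartilage genes, 874 at B cell genes, 633 at genes of the red blood cell lineage, 254 at megakaryocyte genes or 304 at fat cell genes. The same was found for 444 windows at smooth muscle, 414 at skeletal muscle, 572 at fibroblast and tendon, 234 at liver and 856 at brain genes, and for 529 at genes of limb and axis identity, a list with HOX genes of the A, C and D clusters but not of the B cluster, and 564 at the methylation writers and erasers. With a background of 0.0441% over all windows at genes, counts of 0 among so few windows do not set these lists apart. The median difference of the list windows was 17.8 points for osteoblast genes and 15.2 for cartilage genes, against 16.1 for all genes. It was lowest for the red blood cell lineage, at 8.65 points.

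A single member was found at 1 gene each of the osteoclast, myeloid, white blood cell and endothelial lists. NFATC1, the transcription factor that drives osteoclast formation, held chr24:787001-788000, with 75 CpG sites, 89.9% of 2289 calls in Bone_1 (88.6 to 91.1%) and 35.4% of 192 calls in Bone_2 (28.998 to 42.4%). The strands were 53.3 and 57.6 points apart, but only 9 of its sites had at least 5 calls in each sample, all of them lower in Bone_2. The windows beside it were 16.2 and 31.7 points apart. DOCK2, an activator of Rac in white blood cells, held chr20:1621001-1622000, at 92.0% of 613 and 41.1% of 95 calls. At NCF4, a subunit of the phagocyte oxidase, chr5:75288001-75289000 was at 93.9% of 66 and 43.7% of 167 calls, and at EMCN, an endothelial mucin, chr6:24245001-24246000 was at 76.3% of 59 and 26.3% of 118, just at the limit. One window in 498, 413, 1470 and 915 at these lists describes no shift of these lists.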

How the data were processed

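WGBS reads of 2 bone samples had been trimmed, aligned with Bismark, cleared of duplicates and reduced to calls by the authors. The deposited values are raw counts, giving for every CpG cytosine on either strand how many calls were methylated and how many were not. The submitters' processing notes name FastQC 0.11.5, Trim Galore 0.4.5, Bowtie2, Bismark 0.19.0 and the assembly ARS-UCD1.2, while the study's methods name another assembly.

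Here the paired cytosines of a CpG were merged across strands and their counts summed over windows of 1000 bp on chromosomes 1 to 29. Total depth was 582241763 calls in Bone_1 and 440334436 in Bone_2, with medians of 13 and 14 calls per autosomal site. Levels have Wilson intervals and differences Newcombe intervals, both at 95%. After a count of 0, the level allowed was 3 calls of the total, with every call taken as independent. No significance test was made, because the samples form a single group and the members were selected on the contrast. The code that chooses the members was tested on simulated counts, which checks the code and not the members found here.

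The members and gene lists were chosen with earlier results of these data known. Named windows were the 10 with the largest difference, the 5 adjoining pairs with the most calls (no longer run existed, and 1 pair is not reported here), and 3 on each side of the limit. Named genes were the 10 with the most members, the 10 with the highest share of at least 10 windows, and up to 4 per list, of which 1 list's result is not reported here. Gene placement was planned to rest on a reference sequence, and promoters were planned too. With positions from ARS-UCD2.0 and no strand or sequence at hand, placement rested instead on a check of CpG density at gene ends, chosen after the data were seen, and promoters were not analysed here. Sequences of windows were not used here. Tables were handled with pandas 2.3.3, pyarrow 21.0.0 and numpy 2.4.6 under Python 3.11.15 and plotted with matplotlib 3.10.9.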

Additional observations from a re-analysis of the deposited data

Results flagged for a closer look

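The X chromosome was outside the choice of members. Of its 64452 eligible windows, 17 (0.0264%) were at least 50 points lower in Bone_2 by the same rule, against 0.0549% of autosomal ones. The count was flagged because these windows lie in data that the comparison did not use, and its share is below the autosomal share. There are no control samples to set it against. The median difference was 17.0 points over X-linked windows and 16.9 points over autosomal ones.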

How the results depend on the processing

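The number of members depended on every limit. From 855 windows it moved to 300 from 100 calls on, 1875 from 20 calls on, 331 for 10 or more CpG sites, 11176 at 40 points and 69 at 60 points. It was 5351 on the top strand alone and 5412 on the bottom strand alone, each with at least 25 calls, and 84 where both strands had to pass, an alternative chosen after seeing the data. Moving Bone_2 by the autosomal odds ratio of 1.83 left 53. The share with an adjoining member, 1.64%, was 0.604% with at least 10 CpG sites, 3.53% at 40 points, and 0% at 60 points or with the odds ratio. The share within 2 kb of a CpG-dense window, 7.84%, was 15.7% from 100 calls on and 5.39% from 20 calls on, 15.7% for 10 or more CpG sites, 5.80% at 60 points, 14.8% and 14.9% on the top and bottom strand, 13.1% on both strands and 3.77% with the odds ratio. Shifting the window edges by 500 bp gave 913 windows, with 1.42% adjoining a member and 8.43% near a CpG-dense window. Leaving out the deepest 1% of windows gave 848, with 1.65% and 7.90%. The mean of site levels, which needs 5 sites of 5 calls in each sample, gave 902 windows. Of the 619 members that could be scored this way, 307 were among them, and the other 236 members could not be. The cause of these changes was not tested, apart from the windows that each limit removes or adds. Leaving out a sample was not possible, since the rule needs both. No paired analysis was possible because there is 1 group only. Depth limits what a single member shows, since the interval of its difference reached a median of 10.9 points to either side with every call taken as independent.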
